A study of Margaritifera margaritifera with 32 samples.

Results

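Kidney transcripts of old and young freshwater pearl mussels (Margaritifera margaritifera) were compared within a series of 32 animals. The members were taken from the age class in the labels, which gave 11 old and 10 young animals, 21 of the 32. The remaining 11 were labelled middle-aged. The animals came from the Dronne River in France, from a site upstream or a site downstream of a dump, in April 2009 or March 2010, with 8 animals in each of the 4 groups named upstream_2009, downstream_2009, upstream_2010 and downstream_2010. The old animals numbered 1, 7, 1 and 2 in these groups, in that order, and the young animals 3, 0, 4 and 3. Old and young animals were therefore found together in 3 groups, which held 4 of the 11 old animals and all 10 young ones, and downstream_2009 contributed old animals without a young one beside them. Each library came from the kidney of 1 numbered individual. The labels give no treatment other than site, no age in years and no account of how the age class was set, and no value in the count table checks the age label.

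The freshwater pearl mussel is among the longest-lived invertebrates, and its shell grows throughout life. The kidney of a bivalve filters and modifies the fluid of the pericardium, excretes nitrogenous waste and stores metals in granules. Processes that are commonly followed with age in animals include the control of oxidants and of damaged proteins, the turnover of the extracellular matrix, innate immunity, and the packing of DNA by histones.

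The deposited table gave raw read counts for 51392 contigs, which are assembled transcript sequences. Of these, 1413 carried a gene or protein name (1085 distinct names, 10% of all counts) and the rest a running number, a LOC number or another locus tag. A name states the best match of a contig and not a tested identity, and contigs that share a name, such as NEURM.1.2 and NEURM.2.2, may also share reads. Levels below are CPM, counts scaled to a fixed total per library, with totals adjusted by the trimmed mean of M values (TMM), and since contig lengths were not used they are compared between animals and not between contigs. In bulk tissue, fewer cells of a type and less RNA per cell cannot be told apart. No sequences are shown because no contig sequence was used here.

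Total counts ran from 64.7 to 190 M in young animals and from 55.7 to 126 M in old ones. The median correlation of a library with all others, on log2 CPM, ran from 0.679 to 0.888 in old and from 0.736 to 0.89 in young animals. Downstream_2009 replicates 7 and 8, both old, had the lowest scaling factors (0.503 and 0.525) and the highest summed CPM of ribosomal protein contigs (110000 and 94400, against at most 44200 in the other old animals). Downstream_2010 replicate 5, also old, stood at the far end of the fourth principal component (-159, with 8.13% of the variance). Sequencing lane and age overlapped: 6 of the 10 young animals were in lane 2, with 2 old ones, and lane 3 held 4 old animals and no young one. The kidney markers CUBN, LRP2 and nphs1, named for proteins of filtering and reabsorbing epithelia, were counted in each of the 32 libraries, and CAH2, named for a carbonic anhydrase, was at 0 in 2 of them.

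**Figure D1:**
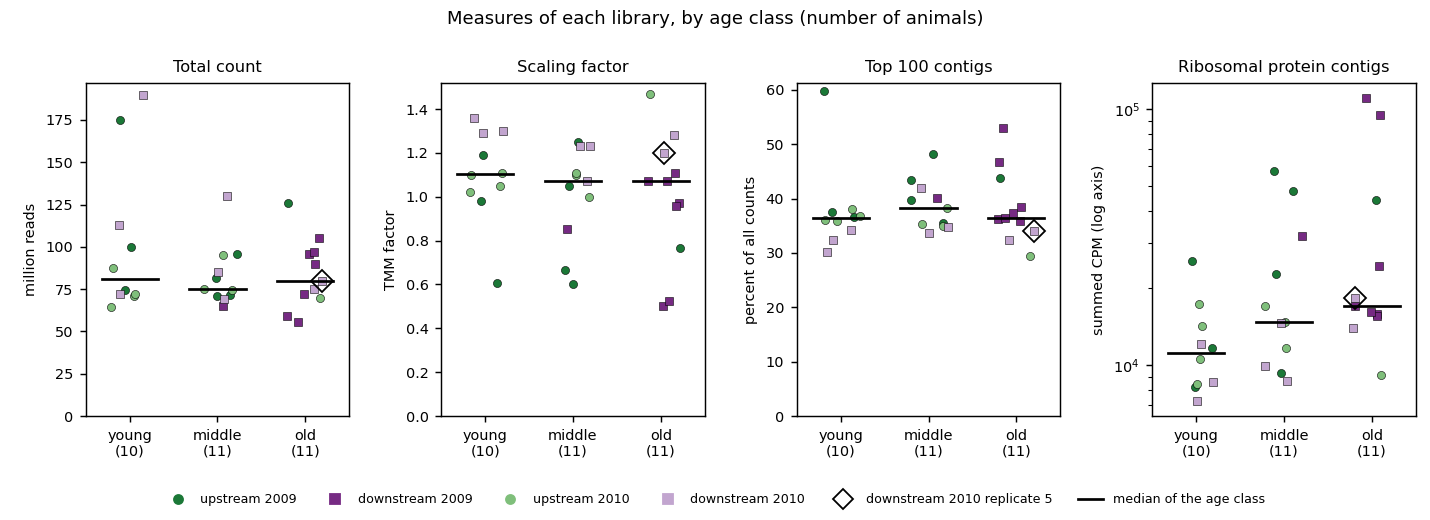
Total count, scaling factor, share of counts in the 100 most abundant contigs and summed CPM of ribosomal protein contigs (log axis) of each library, by age class. Colours and shapes give the site-year group, bars the median of an age class and the open diamond downstream_2010 replicate 5. Old and young animals overlap in all 4 measures, and the 2 highest ribosomal sums, 110000 and 94400 CPM, are those of downstream_2009 replicates 7 and 8.

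The plot of library measures shows each of these values. Within the 3 groups that hold both ages (4 old and 10 young animals), the total count differed by -19.4 M (old minus young, exact permutation test within groups, two-sided, p = 0.5), the scaling factor by 0.0393 (p = 0.755, exact), and the share of counts in the 100 most abundant contigs by -1.98 percentage points (p = 0.605, exact). The number of contigs at 1 CPM or more differed by 363 (p = 0.455, exact). Summed ribosomal protein contigs were 21400 ± 15600 CPM in the 4 old and 12400 ± 5540 CPM in the 10 young animals (SD), a difference of 9880 CPM with p = 0.045 in the exact permutation test and 0.225 adjusted over the 5 measures. Without the old animal upstream_2009 replicate 2, which had 44200 CPM, the difference was 2685 CPM. The smallest p that the 200 arrangements allow is 0.005.

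Old and young kidneys differed in 1255 of 51379 contigs tested (2.44%) when all 32 animals entered 1 edgeR quasi-likelihood model with group and age class as terms, at a Benjamini-Hochberg adjusted p under 0.05. Of these, 1059 (2.06%) were higher and 196 (0.381%) lower in old animals. Contigs with only a running number made up most of the higher ones (893) and 52 of the lower ones, and contigs with a LOC number were nearly even (123 higher, 113 lower). Among the 1412 named contigs tested, 15 were called (1.06%), 9 higher and 6 lower. The higher names were NOS, PAKG, BCK1, B3GALT5, NEURM.1.2, kiaa0101, H2A.2.2, STX8 and ABCk2, and the lower ones CO4A1, ZN431.4.9, KLC, RAB10, FKB1B and TGFR1. The whole count rested on downstream_2010 replicate 5: without this old animal 0 of 51372 contigs were called, with 5205 at an unadjusted p under 0.05 against 12072 with it. It was also 0 in a fit of the 21 old and young animals alone, with 9356 at an unadjusted p under 0.05. In that fit the adjusted p (edgeR) of the 15 named contigs ran from 0.124 for BCK1 to 0.216 for ZN431.4.9. The adjusted p given below are those of the fit of all 32 animals unless another fit is named.

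The largest called difference among named contigs was that of NOS, named for nitric oxide synthase, which makes the messenger nitric oxide from arginine. In young animals NOS had 0.066 CPM at the lowest, 0.344 at the median and 3.99 at the highest, and in old animals 0.139, 6.59 and 45.2 CPM. The groups overlapped, with 7 of 11 old animals above the highest young one, which was downstream_2010 replicate 4. This count, like those of the same kind below, pools site and year, and downstream_2009 held 7 old animals and no young one. Within groups, the old animal of upstream_2009 had 7.45 CPM beside young values of 0.066 to 0.651, and that of upstream_2010 had 2.33 CPM beside 0.079 to 0.360. The 2 old animals of downstream_2010 had 7.27 and 18.1 CPM beside 0.415 to 3.99. The log2 change in the fit of all 32 animals, middle-aged ones included, was 3.80 ± 0.96 (SE), with an adjusted p of 0.0368 in edgeR. Without downstream_2010 replicate 5 the change was 3.60 ± 1.07 and the adjusted p 0.283. In the fit of the 21 old and young animals alone it was 3.51, with an adjusted p of 0.137 (edgeR).

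PAKG and BCK1 are kinase names, the first of the p21-activated kinases that act downstream of small GTPases, and the second of a kinase at the head of a yeast signalling cascade that guards the cell wall. PAKG had 0.079, 0.929 and 2.42 CPM in young animals (lowest, median, highest) and 0.643, 5.99 and 21.2 in old ones. BCK1 had 0.182, 0.467 and 1.1 CPM in young and 0.382, 3.53 and 14.2 in old animals. For each, 8 of 11 old animals lay above all young ones, and the highest value was that of downstream_2010 replicate 5. The changes were 3.46 ± 0.72 for PAKG (adjusted p of 0.0254, edgeR) and 3.41 ± 0.61 for BCK1 (adjusted p of 0.02), and without that animal 3.04 ± 0.79 and 2.95 ± 0.66, with adjusted p of 0.241 and 0.2. Both had their smallest difference in upstream_2009, where the old animal had 1.66 CPM of PAKG beside young values of up to 1.22, and 1.05 CPM of BCK1 beside up to 0.959.

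B3GALT5 is named for a galactosyltransferase that extends sugar chains, and NEURM.1.2 for neuromacin, an antimicrobial peptide known from leeches. B3GALT5 had 0.405, 0.820 and 1.53 CPM in young and 0.886, 5.44 and 43.4 CPM in old animals. NEURM.1.2 had 2.44, 5.84 and 11.0 CPM in young and 3.34, 30.9 and 154 CPM in old animals. In both, 10 of 11 old animals lay above all young ones, and the exception was downstream_2009 replicate 5. The highest animal for both was downstream_2009 replicate 7. The log2 changes were 3.12 ± 0.75 (adjusted p of 0.0340) and 2.49 ± 0.68 (adjusted p of 0.0465) in edgeR. Without downstream_2010 replicate 5 they were 3.10 ± 0.84 and 2.32 ± 0.74, with adjusted p of 0.246 and 0.296. The second neuromacin contig, NEURM.2.2, had an adjusted p of 0.0503 and a change of 2.40 ± 0.67, with 10 of 11 old animals above the highest young one at 7.03 CPM.

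H2A.2.2, named for the core histone H2A, had 0.673, 1.49 and 3.53 CPM in young and 2.26, 3.49 and 12.5 CPM in old animals. No old animal lay below the young median, and 5 of 11 lay above the highest young animal. Its change was 1.65 ± 0.44 (adjusted p of 0.0430, edgeR), and 1.66 ± 0.48 without downstream_2010 replicate 5 (adjusted p of 0.275). The 3 groups that hold both ages gave close differences of 1.48, 1.62 and 1.56 on the log2 scale. kiaa0101, named for a factor that binds the DNA replication clamp, STX8, named for a syntaxin of endosomal membrane fusion, and ABCk2, an ABC transporter name, also called higher, had means under 5 CPM in either age class. ABCk2 was named as a member of a gene list, and kiaa0101, STX8 and the lower ZN431.4.9, a zinc finger name, were chosen after their values were seen. Their changes were 2.31 ± 0.58, 1.16 ± 0.28, 1.05 ± 0.29 and -1.06 ± 0.28, with adjusted p of 0.0363, 0.0340, 0.0468 and 0.0440 in edgeR. STX8 was highest in downstream_2010 replicate 5 at 7.09 CPM, and without that animal its change was 0.77 ± 0.27, and that of ABCk2 0.64 ± 0.28.

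**Figure D2:**
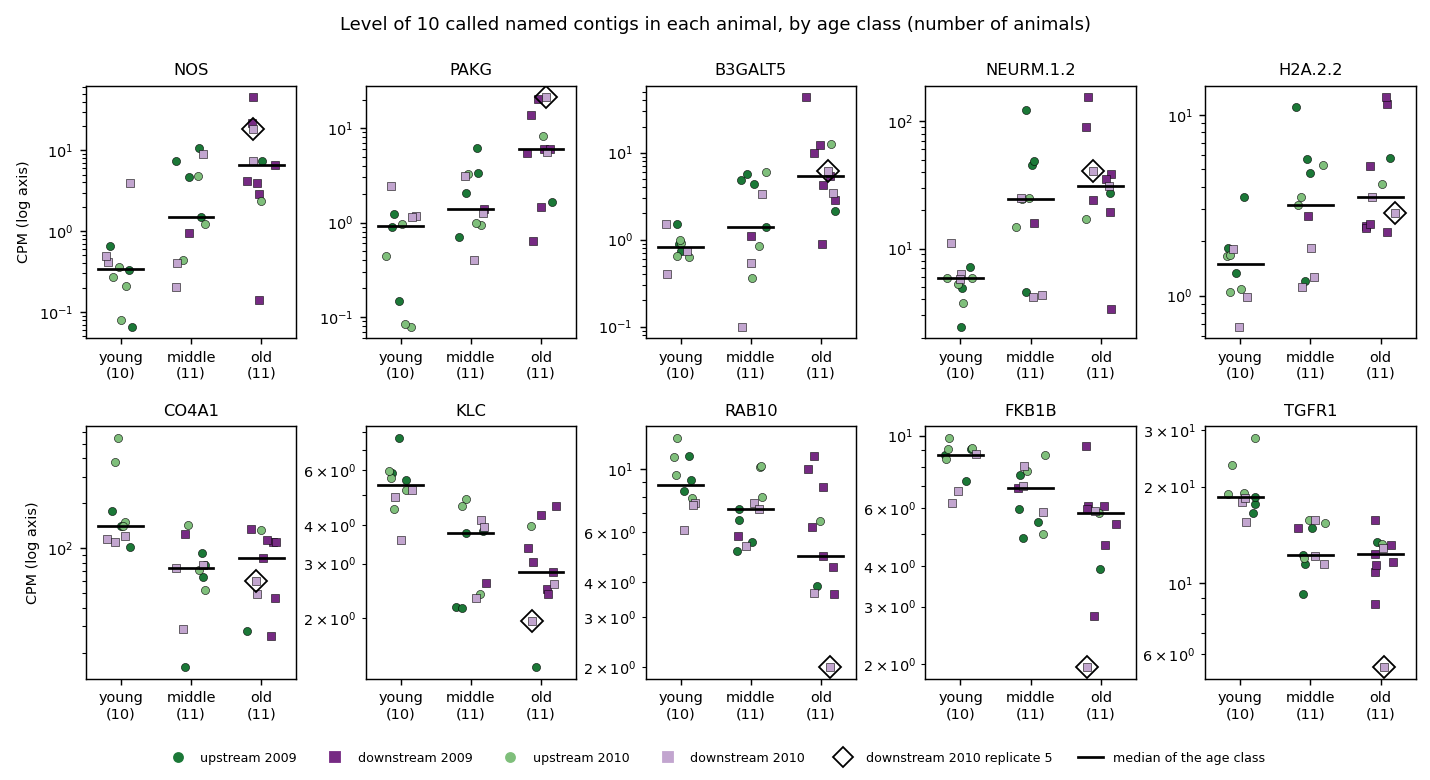
Level in CPM (log axis) of 10 called named contigs in each of the 32 animals, by age class. Colours and shapes give the site-year group, bars the median of an age class and the open diamond downstream_2010 replicate 5. The old animals lie mostly above the young ones in the upper panels and below them in the lower panels, with overlap in each, and the diamond is the lowest point of RAB10 (2.00 CPM), FKB1B (1.96 CPM) and TGFR1 (5.46 CPM).

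Among the names lower in old animals, CO4A1 stands for the collagen IV alpha 1 chain, which builds basement membranes. CO4A1 had 102, 141 and 550 CPM in young and 25.7, 86.2 and 135 CPM in old animals. The groups overlapped between 102 and 135 CPM, and 6 of 11 old animals lay below the lowest young one. The change was -1.48 ± 0.41 (adjusted p of 0.0492, edgeR) and -1.57 ± 0.45 without downstream_2010 replicate 5 (adjusted p of 0.275). In upstream_2009 the old animal had 28.1 CPM beside young values of 102 to 179, and in upstream_2010 132 CPM beside 141 to 550. In downstream_2010 the 2 old animals had 49.1 and 60.4 CPM beside 110 to 121.

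TGFR1 is named for a receptor of the TGF-beta family, whose signals control growth and matrix production. It had 15.5, 18.5 and 28.4 CPM in young and 5.46, 12.3 and 15.7 CPM in old animals, so that 10 of 11 old animals lay below all young ones. The exception, downstream_2009 replicate 4 at 15.7 CPM, lay just above the lowest young animal. Within groups the log2 differences of TGFR1 were -0.39 in upstream_2009, -0.75 in upstream_2010 and -1.03 in downstream_2010. The change was -0.76 ± 0.17 (adjusted p of 0.0314, edgeR), with the lowest value in downstream_2010 replicate 5, and -0.60 ± 0.16 without that animal (adjusted p of 0.236). FKB1B, named for an FK506-binding protein that sits on calcium release channels, had 6.22, 8.74 and 9.84 CPM in young and 1.96, 5.78 and 9.26 CPM in old animals. Its change was -0.85 ± 0.23 (adjusted p of 0.0460, edgeR), and -0.66 ± 0.21 without downstream_2010 replicate 5 (adjusted p of 0.307). The log2 differences of FKB1B were -1.08 in upstream_2009, -0.66 in upstream_2010 and -1.08 in downstream_2010. Again 10 of 11 old animals lay below all young ones. The exception was downstream_2009 replicate 5.

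KLC, named for the light chain of the motor protein kinesin, had 3.57, 5.39 and 7.65 CPM in young and 1.39, 2.81 and 4.61 CPM in old animals. RAB10, named for a small GTPase that steers vesicles to the plasma membrane, had 6.09, 8.76 and 12.9 CPM in young and 2.00, 4.95 and 11.1 CPM in old animals. Below all young animals lay 8 of the 11 old ones for KLC and 6 for RAB10, and downstream_2009 replicate 5 was the highest old animal for both. The changes were -0.99 ± 0.26 (adjusted p of 0.0418, edgeR) and -0.97 ± 0.26 (adjusted p of 0.0466). Without downstream_2010 replicate 5 they were -0.91 ± 0.28 and -0.77 ± 0.27, with adjusted p of 0.292 and 0.334 (edgeR).

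Beside the 5 lower names just given, the 5 that came nearest to a call among those with a mean of at least 5 CPM in an age class were CREBL2, EFCAB14, pold4, prcp and PRR21. CREBL2, named for a protein related to the CREB transcription factor, had 7.90, 13.6 and 21.0 CPM in young and 2.17, 5.46 and 15.0 CPM in old animals, with 10 of 11 old animals below all young ones and an adjusted p of 0.0512 (edgeR). The peptidase name prcp, the DNA polymerase delta subunit name pold4, and the names EFCAB14 and PRR21 had adjusted p from 0.0573 to 0.0714 and changes from -1.37 to -0.71. On the higher side, above the same level and after NEURM.2.2, came CALM.8.20, a calmodulin name, at 1.62 ± 0.45 (adjusted p of 0.0504, edgeR) and Pik3ap1, named for an adaptor of phosphoinositide 3-kinase in immune cells, at 2.37 ± 0.70 (adjusted p of 0.0586). RIR2, named for the small subunit of the enzyme that makes deoxynucleotides, and the EF-hand name EFCB1.1.3 had large changes with large errors, 4.09 ± 1.26 and 4.71 ± 1.5, and adjusted p of 0.0687 and 0.0765. RIR2 ran from 0.449 to 56.3 CPM in old animals, and CALM.8.20 was highest in downstream_2010 replicate 5, at 33.2 CPM, without which its change was 1.03 ± 0.47.

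Among contigs without a name, the smallest p of the higher ones belonged to contig_13308, which had 1.42, 1.72 and 2.85 CPM in young and 3.01, 4.89 and 9.53 CPM in old animals. All 11 old animals lay above all young ones, and the middle-aged animals, at 2.46 to 7.72 CPM, overlapped with both. The change was 1.66 ± 0.24 (adjusted p of 0.00523, edgeR) and 1.46 ± 0.25 without downstream_2010 replicate 5 (adjusted p of 0.0715). The smallest p of the lower ones belonged to LOC105318180, with 3.10, 4.91 and 14.4 CPM in young and 1.29, 2.69 and 4.08 CPM in old animals, a change of -1.56 ± 0.23 and an adjusted p of 0.00523. Without that animal the change was -1.55 ± 0.25 and the adjusted p 0.0581. Next in rank were contig_11790, at 1.47 ± 0.24, and LOC106872908, at -2.20 ± 0.37, for which 10 of 11 old animals lay below all young ones. The table does not pair these IDs with a function.

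Downstream_2010 replicate 5 was the highest of all 32 animals for 619 of the 1059 contigs called higher (58.5%) and the lowest for 97 of the 196 called lower. How often this animal was at an end over all contigs tested is not given here, so these shares have no background beside them. Without this animal the median change of the higher contigs went from 1.25 to 0.94 and that of the lower ones from -1.18 to -1.03, and the smallest adjusted p among them was 0.0715 for higher and 0.0581 for lower contigs. The difference between old and young had the same sign in each of the 3 groups that hold both ages for 983 of the 1059 higher and 191 of the 196 lower contigs, and for 44.6% of all contigs tested. Since the called contigs were chosen on the same animals, these counts describe them and do not test them. Over all 51379 contigs, called or not, all old animals lay above all young ones in 28 (0.0545%) and below them in 30 (0.0584%), of which 23 and 9 were called; none of the 15 named contigs was among them.

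Other single animals moved the count as well. It was 36 without downstream_2010 replicate 7, 132 without downstream_2010 replicate 8, 292, 307 and 350 without upstream_2009 replicates 8, 6 and 7, and 473 and 662 without upstream_2010 replicates 4 and 6, all of them young. Without upstream_2010 replicates 7 (young) and 1 (middle-aged) it was 776 each, and it was 821 without downstream_2010 replicate 1 (middle-aged). It was 2582, 2348 and 1779 without downstream_2009 replicates 5, 8 and 7, and 2183 without downstream_2010 replicate 2, all of them old. Downstream_2009 replicate 5 was the old animal with the level nearest to the young ones in KLC, RAB10, FKB1B and CREBL2. The count was below 1255 without each young animal except upstream_2010 replicate 8 (1475), as the plot of calls by animal left out shows.

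**Figure D3:**
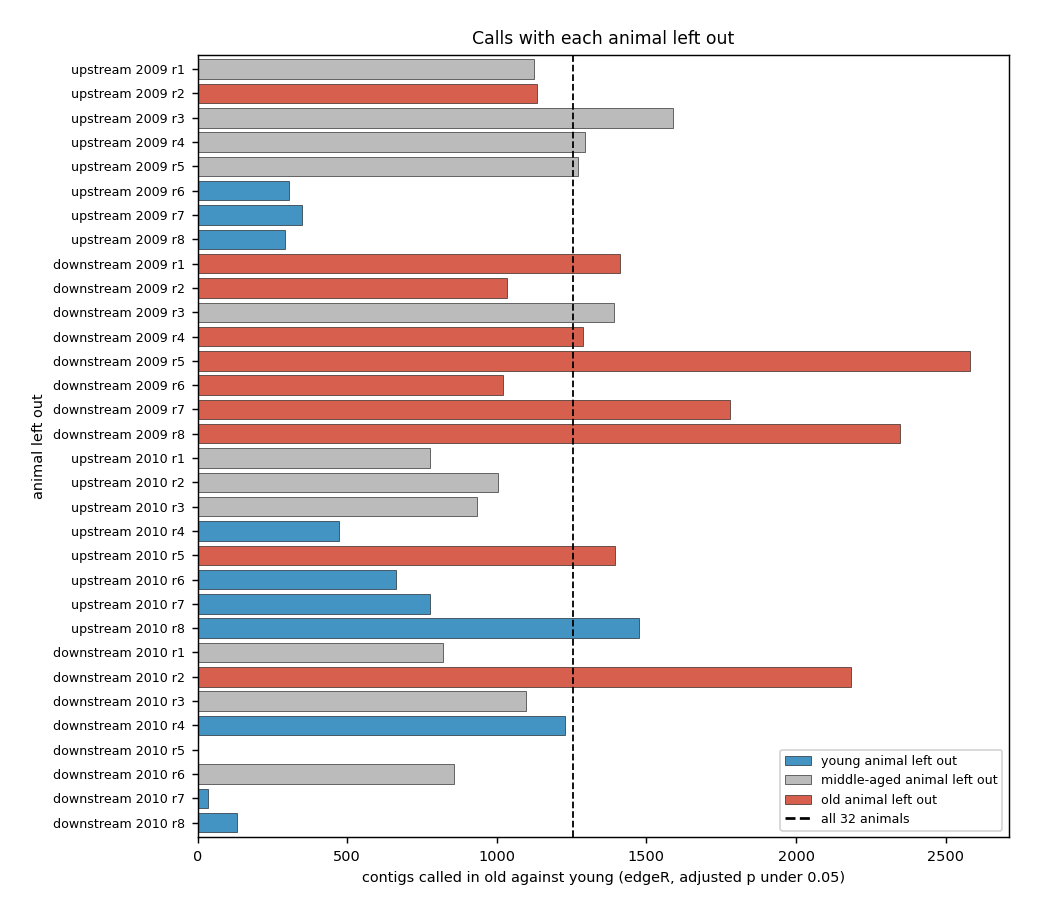
Number of contigs called in old against young (edgeR, adjusted p under 0.05) with each of the 32 animals left out in turn; the dashed line marks the 1255 calls with all animals. Bar colours give the age class of the animal left out. The count is 0 without downstream_2010 replicate 5 and 2582 without downstream_2009 replicate 5.

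Sequencing lane was not balanced over age. Within lane 1 (4 old and 2 young animals) the sign of the difference matched the fitted one for 1253 of the 1255 called contigs, within lane 2 (2 old and 6 young) for 1235, and within lane 4 (1 old and 2 young) for 1093. Over all 51379 contigs the shares with a matching sign were 76.8%, 79.1% and 64.5% in these lanes. All old animals of lanes 2 and 4 were from downstream_2009, which held no young animal. Within these lanes age cannot be told apart from site and year. The old animals of lane 1 included downstream_2010 replicate 5. The called contigs were chosen on the same animals, so their matching signs are a description. Lane 3 held no young animal. With lane as an added term edgeR called 4333 contigs, 3223 higher and 1110 lower, which included 989 of the 1255. Of the 15 named contigs, NOS had a change of 4.65 in that fit (adjusted p of 0.0261) and NEURM.1.2 a change of 3.26 (0.0218), while CO4A1 (0.0686), KLC (0.052) and ZN431.4.9 (0.0617) were no longer called. Over the 14 alternatives to the main model the highest adjusted p of each of the 15 was 0.788, in the animals of 2009. The share of higher contigs among those called was 84.4% in the main model, 83.1% with RLE size factors, 74.4% with the lane term, 66.4% with DESeq2 and 57.6% with limma-voom.

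Age and site were hardest to separate in downstream_2009. Without this group, which left 4 old and 10 young animals beside 10 middle-aged ones, edgeR called 7152 contigs, 1235 of the 1255 among them. The animals of 2009 alone, in which a single old animal shared a group with young ones, gave 0 calls, with 2366 contigs at an unadjusted p under 0.05. With no terms for site and year, 13519 contigs were called, a count in which age cannot be told apart from downstream_2009.

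The animals of 2010 allow old and young to be compared at each of the 2 sites, with 3 old animals (upstream_2010 replicate 5, downstream_2010 replicates 2 and 5) and 7 young ones. This fit shares its animals with the one above. edgeR called 118 of 51283 contigs (0.23%), 113 higher (0.22%) and 5 lower (0.00975%) in old animals, with 7558 at an unadjusted p under 0.05, and the median change of the higher ones in the fit of all animals was 3.25. The named ones were 3 of 1406 (0.213%), all higher. BCK1 changed by 3.81 ± 0.43 (adjusted p of 0.0189), with 6.94, 3.53 and 14.2 CPM in the 3 old animals against at most 1.1 in the young ones. NEURM.1.2 changed by 2.02 ± 0.25 (adjusted p of 0.0233), with 17.2, 30.9 and 40.4 CPM against at most 11.0, and B3GALT5 by 3.14 ± 0.43 (adjusted p of 0.0297), with 12.7, 3.47 and 6.09 CPM against at most 1.52. For each of these, all 3 old animals lay above all 7 young ones. NOS, at 3.11 ± 0.69, had an adjusted p of 0.131 in 2010, and TGFR1, at -0.86 ± 0.28, one of 0.261.

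Without downstream_2010 replicate 5, the 2010 fit with 2 old animals called 8 of 51256 contigs (0.0156%), all higher in old, 4 with a LOC number and 4 with a running number, with 3668 contigs at an unadjusted p under 0.05. Their changes ran from 3.09 to 4.5 and their adjusted p from 0.00516 to 0.0335, and 7 of the 8 were also called with all 32 animals. BCK1 had a change of 3.55 and an adjusted p of 0.1 in this fit, NEURM.1.2 one of 1.89 and 0.1, and B3GALT5 one of 3.22 and 0.143. The count for 2010 was 0 without upstream_2010 replicate 5, the other site's single old animal. It was 6, 41, 53 and 39 without upstream_2010 replicates 4, 6, 7 and 8, 58 and 25 without downstream_2010 replicates 7 and 8, 331 without downstream_2010 replicate 4 and 419 without downstream_2010 replicate 2. The difference between the age effect of 2010 and that of 2009, tested as an interaction in the 21 old and young animals, was called for 0 of 51389 contigs (edgeR), with 1671 at an unadjusted p under 0.05. It rested in 2009 on the single old animal of upstream_2009. For the 15 named contigs its adjusted p ran from 0.968 upward.

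**Figure D4:**
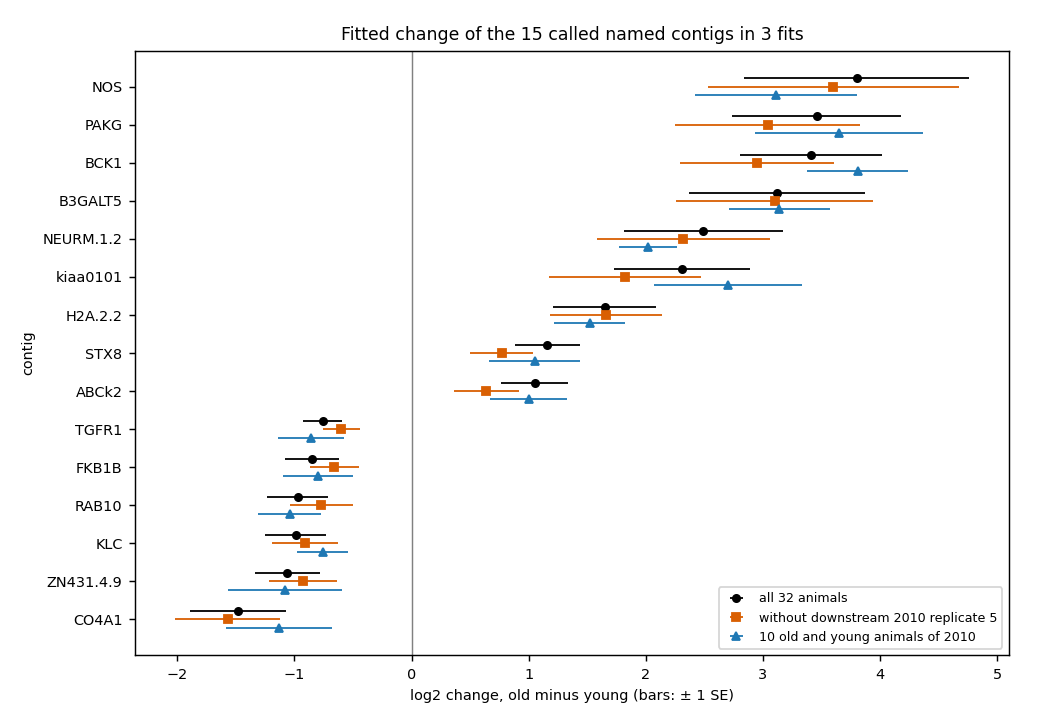
Fitted log2 change (old minus young, bars ± 1 SE) of the 15 called named contigs with all 32 animals, without downstream_2010 replicate 5, and in the 10 old and young animals of 2010. The 3 estimates of each contig lie on the same side of 0, and the change of BCK1 is 3.41, 2.95 and 3.81 in the 3 fits. The contigs were chosen in the fit of all 32 animals, and the 3 fits share animals.

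Gene lists were drawn from the contig names by patterns of letters. The list of nutrient sensing and growth signalling held only 1 contig, Pik3ap1, and was left out. The other 22 lists were kept. Of 382 contigs in these lists 5 were called with all animals (1.31%, beside 1.06% of all named contigs and 2.44% of all contigs): NOS in the antioxidant and redox list, H2A.2.2 among histones, ABCk2 among glutathione transferases and ABC transporters, and CO4A1 and TGFR1 in the list of collagen, matrix and adhesion. The median change of all contigs was -0.03. Histones and chromatin proteins had the highest median, 1.88 over 17 contigs, 15 of them above 0, and 1 called. That list included 8 contigs named for H2A variants, H2B, H3 and H4 whose young median was under 0.1 CPM; the median of the other 9 was 0.69. H33, the replication-independent histone H3.3 and the most abundant member, had 172, 261 and 449 CPM in young and 219, 526 and 2070 CPM in old animals, a change of 0.69 ± 0.39 with an adjusted p of 0.273 (edgeR). H2A.1.2, the other contig of the name H2A, had 1.52 ± 0.45 and an adjusted p of 0.0614. Over the alternative fits of old against young, the median of all 17, the 8 low contigs included, stayed between 1.57 and 2.62. That of the other 9 is not given for these fits. Of those 9, H2A.1.2, H2A.2.2, H3 and H2AV had changes of 1.5, 1.52, 1.97 and 0.76 in the animals of 2010. H33 had 0.28 there, H2B.1.2 and H2B.2.2 had 0.04 and 0.01, and SIR5 and kdm6a had -0.39 and -0.85.

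For cytosolic ribosomal proteins the median was 0.84, and 40 of 43 contigs were above 0, with 0 called (edgeR). Of the 43, 4 had an unadjusted p under 0.05, beside 12072 of all 51379 contigs tested. The summed level of the ribosomal protein contigs was 7270, 11200 and 25500 CPM in young and 9140, 17100 and 110000 CPM in old animals, with wide overlap. The median was 0.64 without downstream_2009 replicates 7 and 8, 0.43 in the animals of 2010 (39 contigs tested), and 0.21 there without downstream_2010 replicate 5. With a lane term it was 1.79, and 24 of the 43 were then called higher. Actins and tubulins had a median of 0.48, with 25 of 32 above 0 and 0 called. This median was 0.25 in the animals of 2010, 0 there without downstream_2010 replicate 5, with 16 of 32 contigs above 0, and 1.24 with a lane term. In the fit of all animals ACTC.3.3 came nearest to a call at 1.78 with an adjusted p of 0.0632 (edgeR). ACTB, a cytoplasmic actin name, had 44.1, 84.1 and 215 CPM in young and 81.7, 309 and 1590 CPM in old animals, a change of 1.41 ± 0.58 with an adjusted p of 0.147 (edgeR). The summed level of muscle marker contigs, for myosin light chains, was 244 to 1780 CPM in young and 262 to 3240 CPM in old animals, and its part in these values was not tested.

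In the antioxidant and redox list, of 19 contigs NOS was called higher and 0 were called lower, with a median of -0.11. Of the 19, 8 had an unadjusted p under 0.05 (edgeR), beside 12072 of all 51379 contigs tested. MSRB2.1.2 and MSRB2.2.2, named for a methionine sulfoxide reductase of mitochondria, had changes of -1.47 ± 0.43 and -1.05 ± 0.36 (adjusted p of 0.0581 and 0.0957, edgeR), and txnrd2, a mitochondrial thioredoxin reductase name, had -0.92 ± 0.38 (0.146). MSRB2.2.2 had 4.34, 6.14 and 12.8 CPM in young and 0.668, 4.20 and 10.9 CPM in old animals, which overlap. GSTZ1 and GSTZ2, named for glutathione transferases of tyrosine breakdown, had changes of -1.33 ± 0.53 and -1.44 ± 0.55 (adjusted p of 0.139 and 0.125). The 3 contigs named SODC, for the enzyme that removes superoxide, were not called: SODC.1.3 had a change of 0.45 ± 0.65, SODC.2.3 of 0.78 ± 0.50 and SODC.3.3 of -0.11 ± 0.71. SODC.3.3 had a young median of 2140 CPM and an old median of 2150 CPM. The direction of the list's median was not stable, at 0.01 without downstream_2010 replicate 5 and -0.28 in the animals of 2010.

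The 4 cytochrome P450 contigs, for enzymes that oxidize foreign and fatty compounds, all had estimates below 0, with a median of -0.53 and 0 called. The most abundant, CP3AO, had 27.3, 51.5 and 72.8 CPM in young and 13.0, 26.3 and 62.0 CPM in old animals, a change of -0.59 ± 0.32 (adjusted p of 0.258, edgeR). All 8 energy metabolism contigs tested, 4 of them named G3P for a glycolytic dehydrogenase, also had estimates below 0, with a median of -0.47 and 0 called. Pepck, a name from glucose synthesis, had 554, 1280 and 2090 CPM in young and 465, 684 and 2240 CPM in old animals. For each of the 8 the highest old animal was downstream_2009 replicate 5. All 11 tropomyosin contigs, for the actin-binding protein of muscle, had estimates below 0, with a median of -0.63 and 0 called. This median was 0.06 with a lane term. In the fit of old and young animals alone it was -0.27, with 3 of 11 contigs above 0. The summed level of these contigs was 439, 539 and 3640 CPM in young and 265, 645 and 3720 CPM in old animals, with the higher median in old ones.

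Immune recognition and antiviral contigs had a median of 0.35, with 20 of 27 above 0 and 0 called. Of the 27, 7 had an unadjusted p under 0.05 (edgeR), beside 12072 of all 51379 contigs tested. Lysozymes, which cleave bacterial walls, had both the highest estimate, that of LYS1.3.3 at 2.25 ± 0.81, and the lowest, that of LYS.1.2 at -3.10 ± 1.98. LYS.1.2 was near the floor, with medians of 0.109 CPM in young and 0.0621 CPM in old animals, and its adjusted p was 0.328 (edgeR). LYS1.2.3 had 6.85, 10.6 and 36.4 CPM in young and 17.1, 39.6 and 559 CPM in old animals, a change of 1.89 ± 0.68 with an adjusted p of 0.110 (edgeR). RSAD2.1.2 and RSAD2.2.2, named for the antiviral protein viperin, had changes of 1.33 ± 0.54 and 1.29 ± 0.54 (adjusted p of 0.146 and 0.154). The summed level of haemocyte marker contigs was 24.4, 41.9 and 57.2 CPM in young and 27.0, 50.0 and 283 CPM in old animals, with a median change of 0.07 and 0 of 5 called, and 2 of these 5, FCN1.1.2 and FCN1.2.2, are also in the immune list. The part of blood cells in these values was not tested.

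Among calmodulins and carbonic anhydrases 0 of 28 contigs were called, with a median of 0.37, which was 0.31 in the animals of 2010 and 0.05 there without downstream_2010 replicate 5. Below a mean of 5 CPM, CALM.16.20 and CALM.9.20 had adjusted p of 0.0531 and 0.0538 (edgeR). Inhibitors of apoptosis and caspases had 0 of 39 called and a median of 0.07 (-0.03 in the animals of 2010). Of the 39, 9 had an unadjusted p under 0.05 (edgeR), beside 12072 of all 51379 contigs tested. The cell death inhibitor BCL2 had a change of 0.98 ± 0.35 (adjusted p of 0.103, edgeR), the caspase contig CASP2.5.6 one of 1.13 ± 0.47, and the inhibitors DIAP1 and IAP3 had -1.12 ± 0.38 and -0.72 ± 0.26. In the collagen, matrix and adhesion list, where CO4A1 and TGFR1 were called lower, 8 of 16 contigs were above 0 and the median was 0.02. The fibrillar collagen names COL5A1 and COL2A1 had changes of -0.11 ± 0.17 and -0.44 ± 0.28, and COL12 had 0.81 ± 0.62. Of the glutathione transferases and ABC transporters 1 of 10 was called higher, ABCk2, while 6 were below 0 and the median was -0.42. The direction of this median rests on the choice of members: 10 names of mitochondrial ribosomal proteins, which the pattern of letters had also matched, were dropped once the names were seen, and with them the median was 0.23 and 13 of 20 contigs were above 0.

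Metal handling had 0 of 9 contigs called and a median of 0.11. FRIS.1.2 and FRIS.2.2, named for the iron store ferritin, had changes of 0.07 ± 0.44 and -0.03 ± 0.45, at young medians of 8790 and 1870 CPM. The zinc importer name slc39a12.1.2 had 0.211, 6.37 and 13.6 CPM in young and 0.869, 25.1 and 34.0 CPM in old animals, a change of 1.72 ± 0.71 with an adjusted p of 0.147 (edgeR). The phosphate transporter name SLC20A2 had 35.3, 66.6 and 107 CPM in young and 5.49, 28.7 and 55.1 CPM in old animals, a change of -0.76 ± 0.34 (0.177). Solute carriers and water channels as a list had 0 of 16 called and a median of -0.13.

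The remaining lists held no called contig. Their medians were 0.38 for lysosome and autophagy (6 contigs), 0.34 for translation factors (9), 0.31 for oxidative phosphorylation (25), 0.20 for DNA repair, replication and cell cycle (14), 0.13 for RNA helicases and splicing (13), 0.12 for ubiquitin and proteasome (18), -0.09 for heat shock proteins and chaperones (8) and -0.13 for viruses and mobile elements (19). Several of these medians were near 0 or of the other sign in the animals of 2010, with and without downstream_2010 replicate 5. Oxidative phosphorylation had 0.01 with that animal and -0.14 without it, when 4 of 25 contigs were above 0. Translation factors had 0.02 and -0.05, RNA helicases and splicing 0.02 and -0.03, ubiquitin and proteasome -0.08 and -0.11, and DNA repair, replication and cell cycle -0.10 and 0.02, in that order. The proteasome assembly name psmg4 was nearest to a call among them after pold4, with 3.22, 5.93 and 8.45 CPM in young and 7.40, 9.07 and 17.8 CPM in old animals, and a change of 0.78 ± 0.25 with an adjusted p of 0.0769 (edgeR). HSP7C, a heat shock cognate name, had 0.87 ± 0.37 (0.161), and the mitochondrial chaperone name GRP75 had -0.70 ± 0.35 (0.221).

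**Figure D5:**
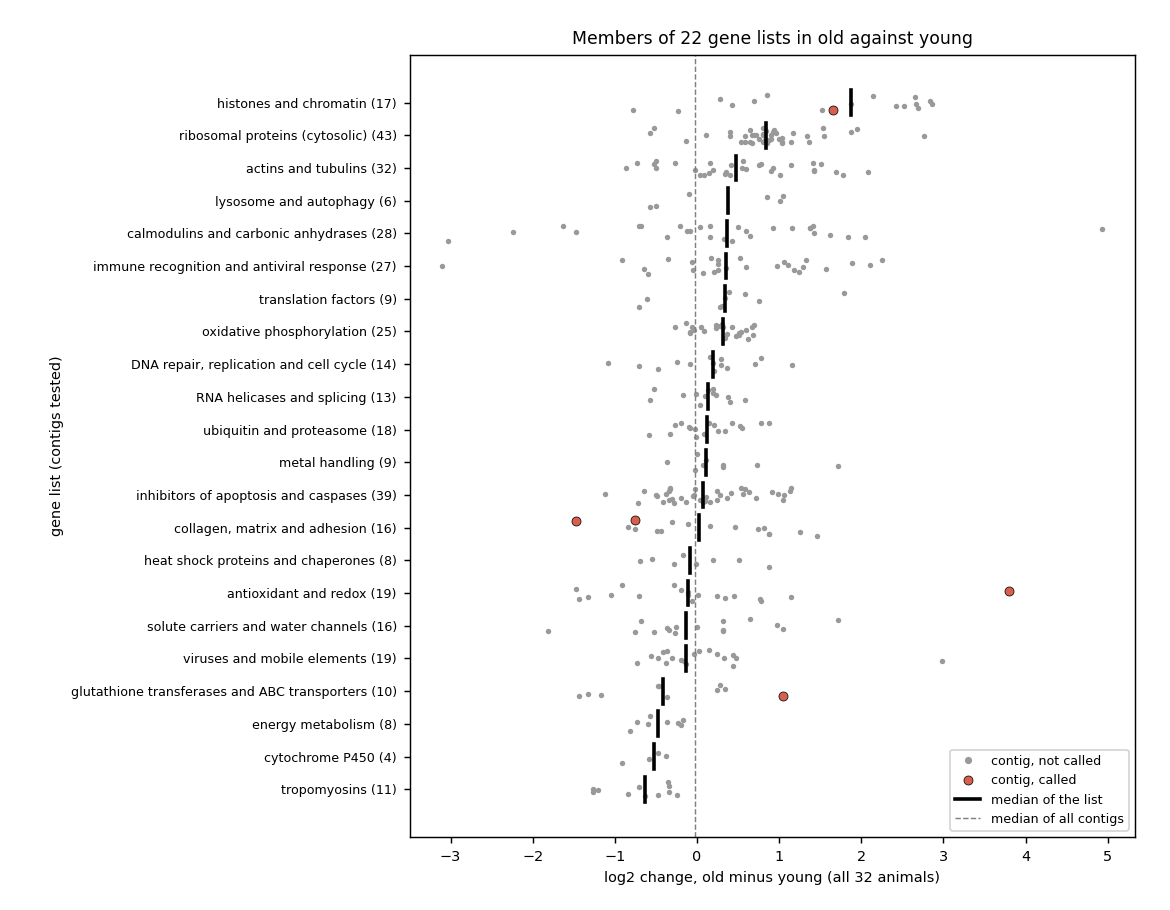
Fitted log2 change (old minus young, all 32 animals) of each contig in 22 gene lists, with the median of a list as a black bar and that of all contigs (-0.03) as a dashed line. Red points are called contigs (edgeR, adjusted p under 0.05). The list medians run from -0.63 for tropomyosins to 1.88 for histones and chromatin, and 5 contigs are called.

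Markers of the cell types that a kidney sample could hold were summed in each animal. Ciliated epithelium markers (4 contigs) had 26.4, 38.7 and 77.5 CPM in young and 20.1, 31.7 and 61.8 CPM in old animals, and digestive gland markers (5 contigs) 13.0, 19.9 and 33.9 CPM and 16.3, 34.5 and 75.4 CPM. The 4 kidney and excretory epithelium markers summed to 4.29, 9.01 and 78.5 CPM in young and to 3.81, 23.8 and 168 CPM in old animals, and no contig of any marker list was called. For gonad and for shell-forming mantle no contig name matched. The digestive markers CHIT.1.2 and CHIT.2.2 were at 0 in 8 and 4 of the 32 libraries. In each marker list old and young animals overlapped, and whether tissue makeup differed with age was not tested.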

How the data were processed

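Per the labels, 1 TruSeq RNA v2 library was made from total RNA of the kidney of each animal. BWA 0.7.12 and SAMtools 1.1 are named in the submitters' processing notes; the assembler, the source of contig names and the treatment of reads that match several contigs are not given in the sources used here. The authors deposited raw read counts per contig, as whole numbers, in 1 table. No 2 libraries had identical counts. The labels number the individuals, and replicate numbers follow accession order.

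Counts were fitted in R 4.3.3 with edgeR 4.0.16 (filterByExpr with a minimum count of 10 and a minimum total of 15, TMM, robust glmQLFit, glmQLFTest, Benjamini-Hochberg over all contigs kept). The main model held the 4 site-year groups and 3 age classes over 32 libraries; the common biological coefficient of variation was 53.5%. The 2010 fit held site and age over 10 animals, and the interaction fit 21 animals. Standard errors were derived from the F statistic, and log2 CPM used a prior count of 2. Library measures were compared by exact permutation within groups. Alternatives were RLE factors, other filters, DESeq2 1.42.0, limma-voom (limma 3.58.1), subsets of animals, a lane term, no site-year terms, age as a number, and each library left out in turn.

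The text names the 10 higher and 10 lower named contigs of largest change among those called, where the age class with more of it averaged 5 CPM or above, filled to 10 by smallest p; called names of 2010; up to 4 called members of a list; and the 2 higher and 2 lower unnamed contigs of smallest p. From the lists, 39 names with another meaning were dropped once the contig names were seen, which turned the sign of 1 list median, that of glutathione transferases and ABC transporters. The comparison, members and lists were chosen with earlier results of these data known.

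Tested on simulated counts for 51376 contigs, old against young recovered 18 of 100 contigs changed 2-fold and 74 of 100 changed 4-fold, with 1 unchanged contig called. The 2010 fit, over 51258 contigs, recovered 0 and 12 of 100, with 0 unchanged contigs called. Simulated contigs were independent; an animal unlike its group was not simulated.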

Additional observations from a re-analysis of the deposited data

Results flagged for a closer look

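In 80 groups of animals, over 15 contigs and 5 library measures, 7 had an end animal far from the rest of its group, measured as the gap to its nearest neighbour divided by the range of the group; chance gives about 1 in 20. Contigs were judged on log2 CPM. Among the 10 young animals, NOS in downstream_2010 replicate 4 was high at 3.99 CPM, with a gap of 0.467 of the range. In the 4 young animals of upstream_2010, replicate 8 was high for STX8 at 2.03 CPM (0.855) and low for kiaa0101 at 0.141 CPM (0.871). The total count of downstream_2010 replicate 4, 190 M, stood apart among the 7 young animals of 2010 (0.615). Upstream_2009 replicate 7 stood apart among the young animals by a low scaling factor of 0.606 (0.5) and by a share of 59.7% of its counts in the 100 most abundant contigs (0.732). Among the 7 old animals of downstream_2009, replicate 8 had the fewest contigs at 1 CPM or more, 38002 (0.608).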

How the results depend on the processing

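The 1255 calls of old against young were 4109 with DESeq2, 8581 with limma-voom, 0 with the old and young animals only, 7152 without downstream_2009, 118 and 587 in the animals of 2010 (old and young, or all ages), 0 in the animals of 2009, 3669 without downstream_2009 replicates 7 and 8, 4333 with a lane term and 13519 with no site-year terms. They were 1234 with RLE factors, 1253 with no filter, 1434 with a filter of 1 CPM in 8 libraries and 1325 with age as a number, and 0 to 2582 with 1 library left out. The 118 calls of 2010 were 1606 with DESeq2, 1112 with limma-voom, 129 with RLE factors, 118 with no filter, and 0 to 419 with 1 library left out. The interaction of age and year had 0 calls, also without downstream_2010 replicate 5 (2866 at an unadjusted p under 0.05), a fit added after the data were examined. Leaving out each of 14 animals, also added then, gave differences of -0.1087 to 0.114 in the scaling factor, -3.017 to 0.2047 percentage points in the share of the 100 most abundant contigs, -229.1 to 819.8 contigs at 1 CPM or more and 2685 to 15380 CPM in the ribosomal sum. The values of -0.1087, 0.2047 and -229.1 reversed the sign and came without upstream_2010 replicate 5; the ribosomal sum, lowest without upstream_2009 replicate 2, lost p under 0.05 in 11 of 14 fits. Of the 19 called contigs given one by one in the report, and the 10 nearest to a call, none changed sign in any fit. They were chosen on animals that these fits share, so their kept signs are a description. Of all 51379 contigs, 92.9% kept their sign without downstream_2010 replicate 5. The calls themselves were less stable. Over the 32 fits with 1 library left out, these called contigs stayed called in as few as 7 fits (CO4A1) and at most 31 (BCK1 among others). NEURM.1.2 and RAB10 stayed called in 12 each. The cause of these shifts was not tested. No paired analysis was possible because replicate numbers follow accession order and pair no animals. The lowest depth was 55.7 M counts, and 4 old animals share a group with young ones, which limits precision at any depth.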

Other observations

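The 11 middle-aged animals were on neither side of the comparison, but in the fit they helped to set the spread and the group means. The 7 old animals of downstream_2009 had no young animal beside them. They bore on the estimate of old against young through the single middle-aged animal of that group. For the 15 named contigs called in old against young, their median lay between the young and the old median in 13. NOS had a middle-aged median of 1.5 CPM (0.203 to 10.8), NEURM.1.2 one of 24.7 CPM (4.16 to 122) and H2A.2.2 one of 3.15 CPM (1.12 to 11.0). The exceptions were CO4A1, at 74.2 CPM against 86.2 CPM in old animals, and TGFR1, at 12.2 against 12.3 CPM. Over all called contigs the middle-aged median lay between the others for 968 of 1059 higher and 176 of 196 lower ones; since these contigs were chosen in a fit that held the middle-aged animals, the counts are a description. The single middle-aged animal of downstream_2009 had 0.952 CPM of NOS beside 0.139 to 45.2 CPM in the 7 old animals of that group.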
